A study of Gallus gallus with 6 samples.

Results

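The alpha-crystallins CRYAA and CRYAB are the 2 small heat shock proteins that lens cells make in bulk, and their transcripts were taken from the table by gene symbol, giving 2 rows of the 9107 in the table. Messenger RNA had been sequenced from fiber cells of embryonic day 13 White Leghorn chick lenses. In the untreated group (n = 3) lenses were taken at 0 h, and in the hypoxia group (n = 3) whole lenses had been held in serum-containing organ culture for 8 h in 1% O2. Each library came from a pool of 10 to 15 lenses whose fiber cells were dissected away from the epithelium after treatment, so a pool and not a single animal is the replicate. All birds were of that strain, and the labels name no genetic change. Libraries from 8 h of culture in normal oxygen were not analysed here, so low oxygen and time in culture cannot be told apart.

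Alpha-crystallin is built from CRYAA and CRYAB subunits that join into large mixed oligomers. These bind unfolding proteins without using ATP and keep them from aggregating, which matters in lens fibers because the cells lose their organelles and must keep their proteins for life. CRYAA is largely a lens protein, whereas CRYAB is also made in heart and skeletal muscle and is induced by stress in many mammalian cells. The other abundant lens proteins are the beta- and gamma-crystallins, which alpha-crystallin can hold in solution, and in birds delta-crystallin, encoded by ASL1.

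Levels are rounded read counts after the authors' scaling for library size, called normalized counts here. They are not corrected for transcript length, so the levels of different genes are not compared with one another. Depth on the rows of the table was 23.5 M to 29.1 M reads in untreated and 29.4 M to 32.6 M in hypoxia libraries, so depth differed between the groups without overlap. Of these reads 0.829 M to 1.27 M a library were on CRYAA and 0.206 M to 0.316 M on CRYAB. Counting error is therefore small beside the spread between pools for both genes. Of 10 fiber markers, which include the crystallin genes ASL1, CRYBB1 and CRYBA4, 9 were measured and none was at 0 in all libraries. They too were lower after hypoxia, with 8 of the 9 called lower and a median log2 fold change of -0.59. Called lower were 25.7% of all rows and 60.5% of rows with a mean of at least 10000, as most of these markers had. The summed level of the 9 markers was 15783331 to 18049773 in untreated and 13355619 to 14906069 in hypoxia pools. Most of that sum was ASL1 (14746422 to 16787516 and 12567575 to 14089102), the 1 marker that did not pass. Of 8 genes listed as epithelial markers 6 were measured. Their summed level was 12207 to 12910 in untreated pools and 15861 to 17567 in hypoxia pools. The largest part of that sum was CDH2 (5980 to 6331 and 8132 to 9735), and which cells its reads came from was not tested. The members went different ways, with SLC38A3 (2.18 ± 0.17), CDH2 (0.52 ± 0.10) and PAX6 (0.70 ± 0.10) higher, PDGFRA (-1.57 ± 0.15) lower, and CAV1 and CDH1 not passing. PAX6 is counted again among the transcription factors. FOXE3 and PDPN of that list had no row, and the part of fiber and epithelial cell shares in the results was not tested. Of 13 red cell markers 2 were measured, with sums of 275 to 368 in untreated and 198 to 409 in hypoxia pools. Of 8 vessel and leukocyte markers 2 were measured, with sums of 237 to 326 and 103 to 165, and PECAM1 was lower (-2.10 ± 0.33, adjusted p = 0.000544). Of 10 retina and pigment markers PMEL alone was measured, at 11 to 45 in untreated and 39 to 229 in hypoxia pools (2.43 ± 0.79, adjusted p = 0.0379), and its call was lost in 5 of 17 alternatives. The part of these cells in the results was not tested either.

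Both alpha-crystallin transcripts were lower after 8 h in 1% O2. CRYAA stood at 1216439, 1253566 and 1156786 normalized counts in untreated pools 1 to 3 and at 1095083, 911630 and 757231 in hypoxia pools 1 to 3. Every hypoxia pool lay below every untreated pool, with hypoxia pool 1 close to the untreated range and pool 3 far from it. The mean went from 1208930 ± 48825 to 921315 ± 169130 (SD, n = 3), a change of -23.8%. CRYAB stood at 333096, 337561 and 342012 in untreated pools 1 to 3 and at 246718, 224068 and 187915 in hypoxia pools 1 to 3. Its untreated pools were nearly equal, the hypoxia pools were well apart from them, and pool 3 was again the lowest. The CRYAB mean went from 337556 ± 4458 to 219567 ± 29659 (SD, n = 3), a change of -35.0%. Normalized counts give a level relative to the other transcripts of a library, not an absolute amount. In bulk tissue, a changed mix of cells and less of a transcript per cell cannot be told apart.

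**Figure D1:**
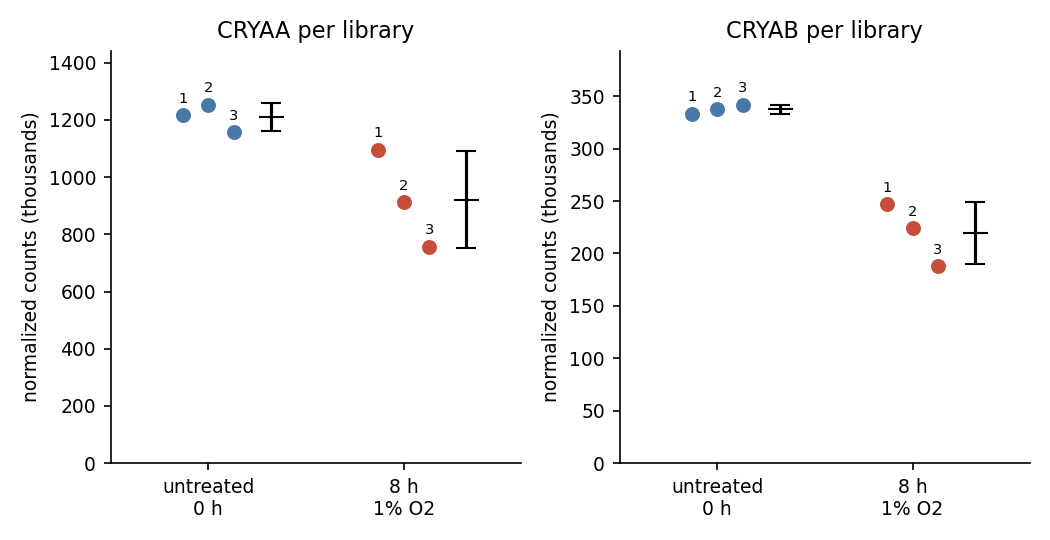
Normalized counts (vertical axis) of CRYAA (left) and CRYAB (right) in the 3 untreated and 3 hypoxia pools, with points numbered by pool and the mean ± SD beside them. All 3 hypoxia points lie below all 3 untreated points for both genes, and pool 3 is the lowest hypoxia point in each panel.

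In a limma fit of log2(value + 1) over all rows, the log2 fold change of CRYAB was -0.63 ± 0.12 (SE, 95% interval -0.89 to -0.37, adjusted p = 0.00104) and that of CRYAA was -0.41 ± 0.14 (95% interval -0.71 to -0.11, adjusted p = 0.0256). Both genes were therefore called lower, beside 25.7% of the 9105 rows tested, and both had groups with no overlap in that direction, as 30.1% of rows did. The authors' deposited table gives shrunken log2 fold changes of -0.61 for CRYAB (adjusted p = 3.72e-07) and -0.38 for CRYAA (adjusted p = 0.00858), and by that adjusted p 22.4% of rows were lower. The fall of CRYAB passed in all 17 alternative fits, with adjusted p from 0.000283 to 0.0146. The call of CRYAA was less firm. It ended without untreated pool 1, 2 or 3 (adjusted p = 0.066, 0.0977 and 0.0562), without hypoxia pool 3 (log2 fold change -0.27, adjusted p = 0.0666), with library totals as the scaling (-0.19, adjusted p = 0.282) and with totals that leave out the crystallins (-0.32, adjusted p = 0.0635).

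**Figure D2:**
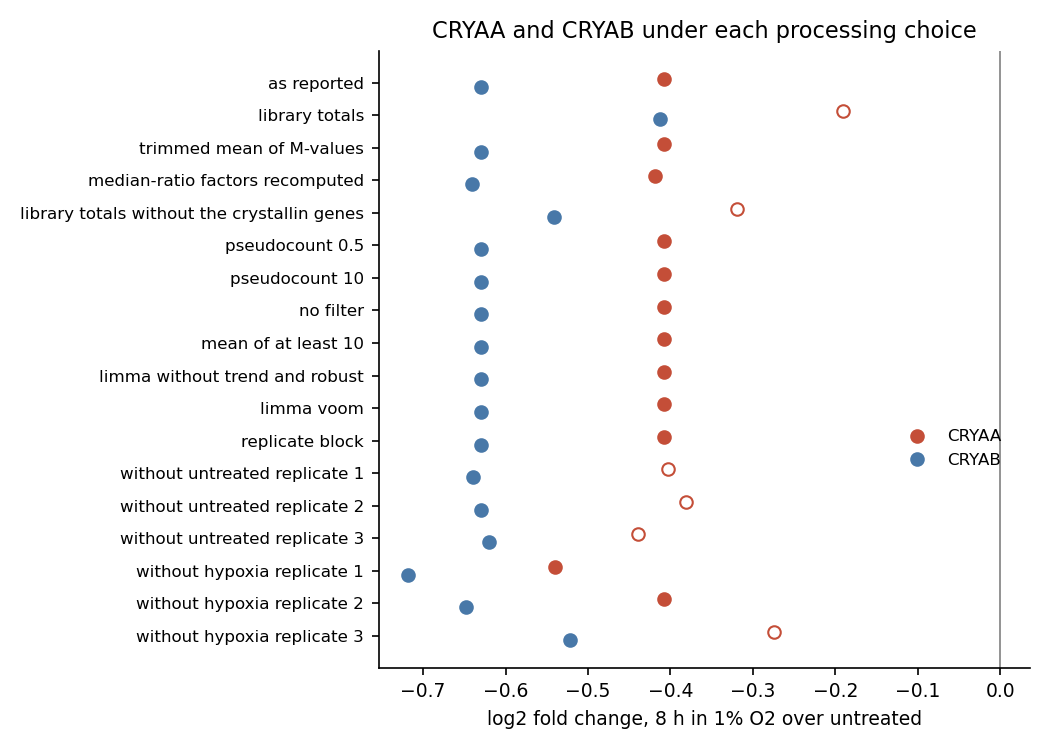
Log2 fold change of CRYAA (red) and CRYAB (blue), 8 h in 1% O2 over untreated, as reported and under each of 17 other processing choices. Filled points passed at an adjusted p under 0.05 and open points did not. All CRYAB points are filled, from -0.72 to -0.41, while 6 of the CRYAA points are open and all lie between -0.54 and -0.19.

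The spread between pools was wider after hypoxia. For CRYAB the coefficient of variation was 1.32% in untreated and 13.5% in hypoxia pools, and for CRYAA it was 4.04% and 18.4%. By another measure, the spread was also wider after hypoxia over the whole table. The measures differ, so the size of the widening at these genes was not set against that of the table. Across the table, the SD of the log2 ratio between 2 pools was 0.235 to 0.268 in hypoxia and 0.151 to 0.185 in untreated pools. With 3 pools a group the difference in spread was not tested. Hypoxia pool 1 was the highest and pool 3 the lowest of its group for both genes. Over all rows, 34.0% had their lowest hypoxia value in pool 3 and 40.8% their highest in pool 1. Leaving out hypoxia pool 3 moved the log2 fold change of CRYAA to -0.27 and that of CRYAB to -0.52. Leaving out hypoxia pool 1 moved them to -0.54 and -0.72.

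The balance between the transcripts of the 2 subunits stood further toward CRYAA in every hypoxia pool. The ratio of CRYAA to CRYAB normalized counts was 3.65, 3.71 and 3.38 in untreated pools 1 to 3 and 4.44, 4.07 and 4.03 in hypoxia pools 1 to 3. All hypoxia ratios lay above all untreated ratios, and the untreated and hypoxia means were 3.58 ± 0.18 and 4.18 ± 0.23 (SD, n = 3). On the log2 scale the ratio was 1.84 ± 0.07 in untreated and 2.06 ± 0.08 in hypoxia pools, a difference of 0.22, with single differences between a hypoxia and an untreated pool from 0.12 to 0.39. An exact two-sided permutation test gave p = 0.10, the smallest that 3 pools against 3 allow, so this design cannot pass 0.05. The change in the ratio depends on neither library scaling nor transcript length. Its size without 1 pool stayed between 0.18 and 0.25.

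Set against ASL1, the gene of the main bird lens protein, CRYAB was lower in every hypoxia pool and CRYAA was not. CRYAB stood at 22.6, 20.7 and 20.4 counts per 1000 ASL1 counts in untreated pools 1 to 3 and at 19.4, 17.8 and 13.3 in hypoxia pools 1 to 3. The groups did not overlap, and the log2 difference was -0.35 (exact two-sided permutation p = 0.10, the smallest possible), or -0.19 without hypoxia pool 3. CRYAA stood at 82.5, 76.9 and 68.9 per 1000 ASL1 counts in untreated pools 1 to 3 and at 86.2, 72.5 and 53.7 in hypoxia pools 1 to 3. These groups overlapped, with hypoxia pool 1 above every untreated pool. The log2 difference of -0.13 was within the spread (exact two-sided permutation p = 0.70), with differences between single pools from -0.62 to 0.32, and it became 0.06 without hypoxia pool 3. ASL1 itself had a log2 fold change of -0.28 ± 0.12, which did not pass (adjusted p = 0.0632). It was called lower in 3 of 17 alternatives, namely recomputed median-ratio factors, the replicate block and the fit without hypoxia pool 3, and the authors' deposited table gives it an adjusted p of 0.0166. Its reads cannot be told apart with certainty from those of its near-identical copy ASL2.

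**Figure D3:**
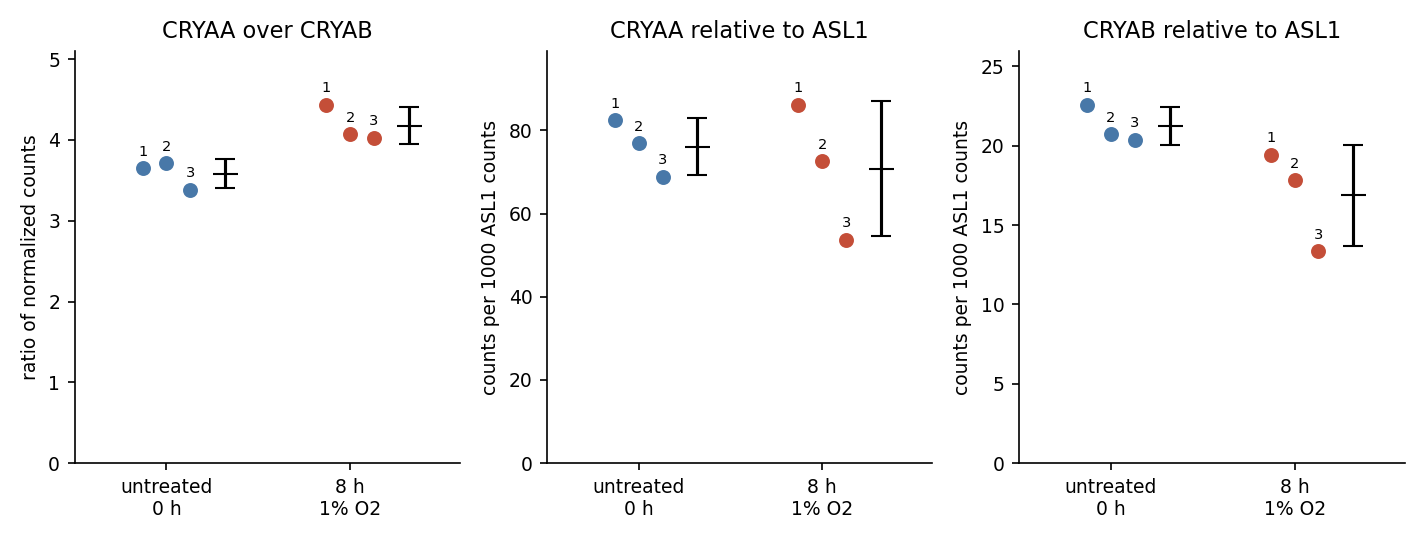
Ratio of CRYAA to CRYAB normalized counts (left), and CRYAA (middle) and CRYAB (right) counts per 1000 ASL1 counts, in each numbered pool with mean ± SD. The ratio is 3.38 to 3.71 in untreated and 4.03 to 4.44 in hypoxia pools, CRYAB relative to ASL1 is lower in all hypoxia pools, and CRYAA relative to ASL1 overlaps between the groups.

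As shares of all reads in the table, which no scaling alters, CRYAB lay below its untreated range in all hypoxia pools and CRYAA in 2 of them. CRYAB took 1.14%, 1.09% and 1.08% of untreated libraries 1 to 3 and 0.937%, 0.871% and 0.699% of hypoxia libraries 1 to 3 (exact two-sided permutation p = 0.10, the smallest possible). CRYAA took 4.17%, 4.04% and 3.66% of untreated libraries and 4.16%, 3.54% and 2.82% of hypoxia libraries 1 to 3 (exact two-sided permutation p = 0.40). The share of CRYAA in hypoxia pool 1 was thus inside the untreated range. Both genes together took 5.06% ± 0.29 of untreated and 4.34% ± 0.79 of hypoxia libraries (SD, n = 3, exact two-sided permutation p = 0.20), and of the reads outside ASL1 they took 10.6% ± 0.4 and 8.62% ± 1.23. Single hypoxia pools weighed heavily here. The joint difference of -0.72 percentage points was -0.31 without hypoxia pool 3 and -1.10 without pool 1, and that of CRYAA alone, -0.45, was -0.11 and -0.78.

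Lower values were common among abundant transcripts. Of 147 rows with a mean of at least 10000, a limit chosen after the values were seen, 89 (60.5%) were lower and 8 higher, beside 25.7% lower over all rows, with a median log2 fold change of -0.33 against -0.01 over all rows. Without untreated pool 3 the number lower was 58. Among these rows 48 had a log2 fold change below that of CRYAA, and 17 below that of CRYAB. Scaled by library totals, 28 of the 147 rows were lower and 13 higher, and their median was -0.11. Library totals raised the median of all rows by 0.216, and the share of ASL1 in those totals was 48.2% to 53.1%. Of the 10 highest rows 7 were lower, but these include CRYAA and CRYAB themselves and the crystallin genes CRYBA2 and CRYBB1. The others were BFSP1, a beaded filament protein (-0.62 ± 0.12), MIP, the lens water channel aquaporin 0 (-0.52 ± 0.14), and EEF1A1, a translation elongation factor (-0.42 ± 0.10). The calls of MIP and EEF1A1 ended with library totals (adjusted p = 0.0667 and 0.121). YBX1, an RNA-binding protein gene, had -0.21 ± 0.10 and did not pass.

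**Figure D4:**
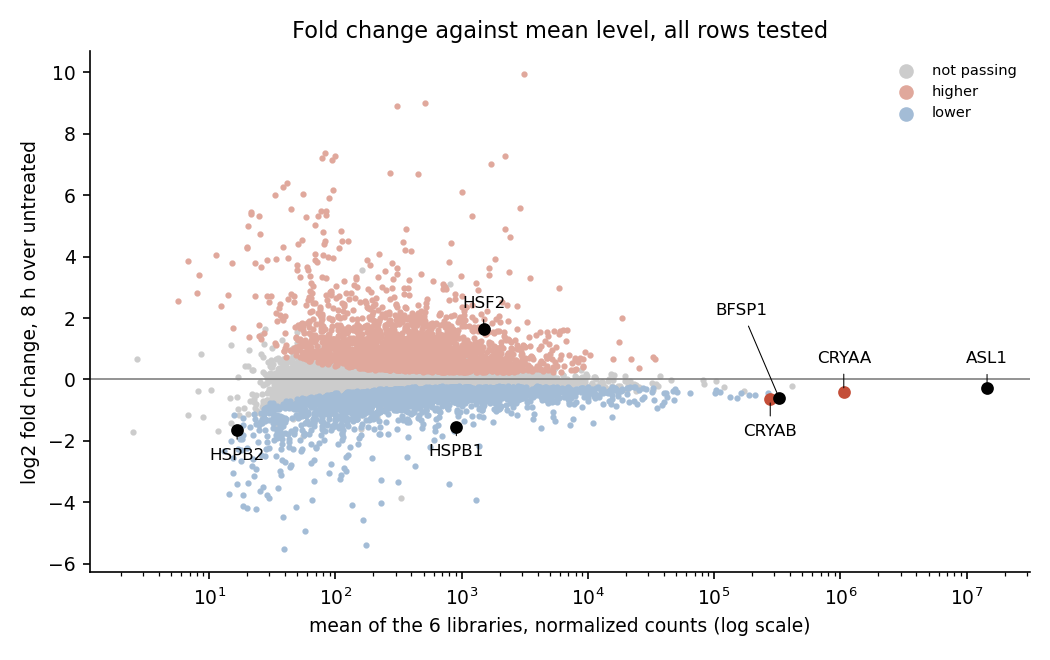
Log2 fold change (vertical axis) against the mean of the 6 libraries in normalized counts (log axis) for all rows tested, coloured by call, with CRYAA and CRYAB in red and 5 further genes in black. Rows to the right of 10000 lie mostly below 0, and CRYAB lies further below 0 than CRYAA and ASL1.

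The beta-, gamma- and delta-crystallins and GRIFIN, the proteins that share the fiber cytoplasm with alpha-crystallin, showed the same direction. Of 11 measured, 9 (81.8%) were lower and 0 higher, beside 25.7% lower and 29.4% higher over all rows. Their median log2 fold change was -0.50 against -0.01 over all rows. Most of these genes had a mean of at least 10000, and of such rows 60.5% were lower, with a median of -0.33. With library totals 5 of the 11 genes were lower and their median was -0.28. CRYBA1, an acidic beta-crystallin, stood at 179402, 167940 and 198025 in untreated pools 1 to 3 and at 139110, 128497 and 93606 in hypoxia pools 1 to 3, so its hypoxia pools took the same order as those of the alpha-crystallins. CRYGS, a gamma-crystallin of vertebrate lenses, had the lowest fold change of the list (-1.69 ± 0.10). CRYBA4 and GRIFIN, a galectin-related lens protein, had -0.81 ± 0.10 and -0.75 ± 0.11. CRYBB2 (-0.38 ± 0.16, adjusted p = 0.0606) did not pass, though it was called lower with the replicate block and without hypoxia pool 1. The authors' deposited table gives CRYBB2 an adjusted p of 0.0431. ASL2 (-0.39 ± 0.15, adjusted p = 0.0482) passed although its groups overlapped, a call lost in 7 of 17 alternatives. The other called members, CRYBA1, CRYBA2, CRYBB1, CRYBB3 and CRYGN, lay between -0.61 and -0.43. The lowest hypoxia value was in pool 3 for 6 of the 11 (54.5%). The share was 34.0% over all rows and 40.1% over rows with a mean of at least 10000. Only CRYBA1, CRYBA2, CRYBB2 and CRYBB3 took the full order of the alpha-crystallins. ASL1 and CRYGN were highest in hypoxia pool 3, and CRYBA4, CRYBB1 and ASL2 in hypoxia pool 2. GRIFIN and CRYGS were lowest in hypoxia pool 2.

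CRYAA and CRYAB belong to the small heat shock protein family, and 4 further members had a row. HSPB1, which protects actin and other proteins under stress, stood at 1095, 1629 and 1286 in untreated pools 1 to 3 and at 270, 637 and 536 in hypoxia pools 1 to 3. The groups did not overlap and the log2 fold change was -1.54 ± 0.34 (adjusted p = 0.010). HSPB2, known in mammals as a muscle chaperone gene next to CRYAB, was near the bottom of the table, at 40, 15 and 23 in untreated and 9, 9 and 4 in hypoxia pools (-1.66 ± 0.52, adjusted p = 0.0192), a call lost without untreated pool 1 or 3 or hypoxia pool 3. HSPB8, which works with the co-chaperone BAG3, stood at 725, 734 and 742 in untreated and at 350, 538 and 821 in hypoxia pools. Those groups overlapped because of hypoxia pool 3, and HSPB8 did not pass (-0.45 ± 0.28, adjusted p = 0.213) but was called lower without that pool (-0.76, adjusted p = 0.00302). HSPB9, listed by RefSeq also as HSP25, stood at 4506, 4547 and 4807 in untreated and 4610, 5161 and 9168 in hypoxia pools, and it did not pass either (0.38 ± 0.24, adjusted p = 0.216). Among the 4, 2 were lower and 0 higher (25.7% and 29.4% of all rows), while library totals gave 2 lower and HSPB9 as higher.

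**Figure D5:**
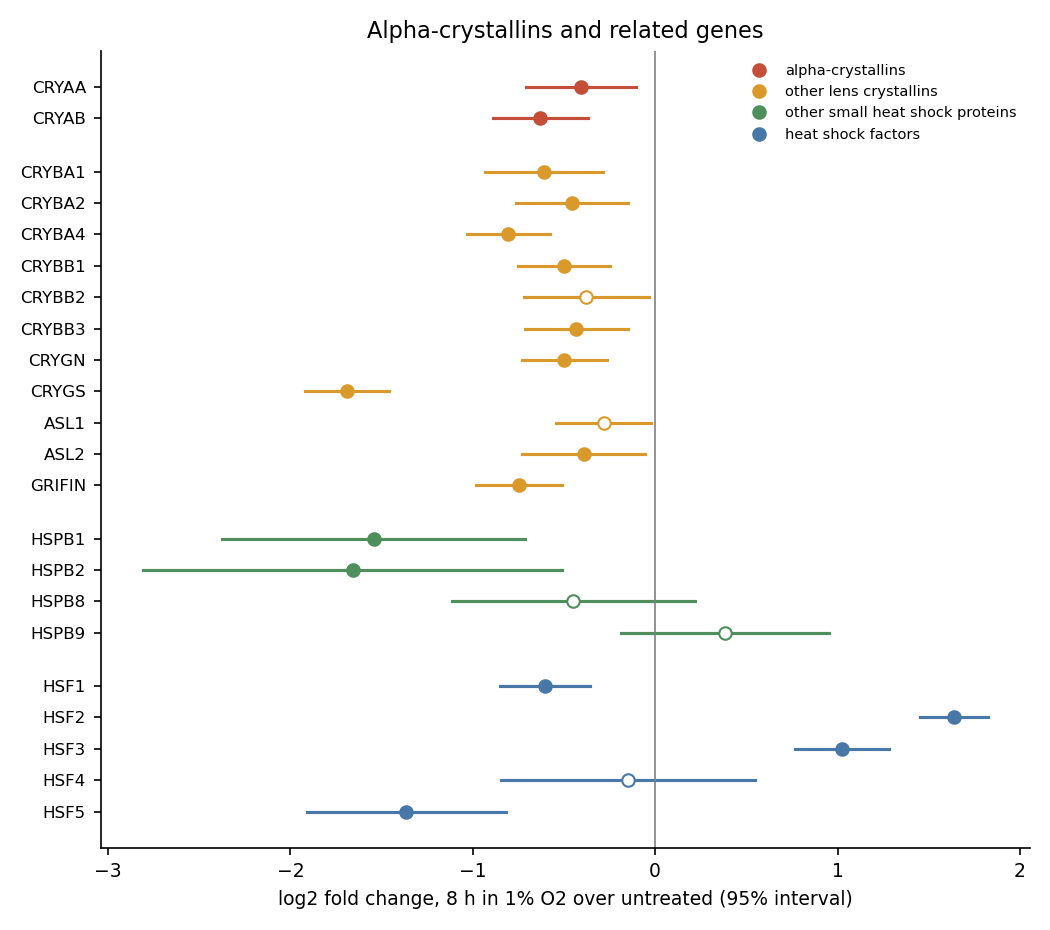
Log2 fold change with 95% interval (horizontal axis), 8 h in 1% O2 over untreated, for the alpha-crystallins, the other lens crystallins, the other small heat shock proteins and the heat shock factors. Filled points passed at an adjusted p under 0.05. All crystallin points lie below 0, and the heat shock factors lie on both sides.

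Heat shock factors switch on chaperone genes, and in mouse HSF4 is needed for lens fiber development. All 5 listed genes were measured, with 2 higher, 2 lower and 1 not passing, as also with library totals. Over all rows 29.4% were higher and 25.7% lower, so 2 of 5 in each direction is no result about the group. HSF2 stood at 749, 715 and 717 in untreated pools and at 2328, 2326 and 2142 in hypoxia pools 1 to 3, which are tight groups far apart (1.64 ± 0.08, adjusted p = 6.77e-08). HSF3, the factor that carries much of the heat shock response in birds, had 1.02 ± 0.12. HSF1, the main stress-activated factor of mammals, had -0.60 ± 0.11, and HSF5 had -1.36 ± 0.25. HSF4 stood at 1887, 2159 and 2054 in untreated and at 1168, 1956 and 2678 in hypoxia pools 1 to 3 (-0.15 ± 0.29, adjusted p = 0.685). Its hypoxia pools lay on both sides of the untreated ones.

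Transcription factors and cofactors tied to alpha-crystallin promoters were mostly higher, in contrast to the direction of CRYAA and CRYAB. Of 20 measured, 13 were higher, where 29.4% of all rows were, and 1 was lower, with a median log2 fold change of 0.71. Library totals gave 14 higher and 0 lower. SOX3, an early lens factor, rose from 984 ± 48 to 3710.0 ± 353.7 (1.91 ± 0.10), and SOX1 and SOX2, lens factors of the same family, rose by 1.25 ± 0.13 and 1.06 ± 0.12 on the log2 scale. RARA, a retinoic acid receptor, rose by 0.89 ± 0.09 and TBP, the TATA-binding protein, by 1.00 ± 0.11 on that scale. MAFA, the chick L-Maf factor that binds the CRYAA enhancer, stood at 5699, 6021 and 5734 in untreated and at 5435, 5391 and 4576 in hypoxia pools 1 to 3. Its groups did not overlap, but it did not pass (-0.18 ± 0.10, adjusted p = 0.123). MAF, a factor of the same family, rose by 0.80 ± 0.10, and PAX6, the eye-field factor, by 0.70 ± 0.10 on the log2 scale. PITX3, a homeodomain factor of the lens, was at 0.08 ± 0.09 and did not pass. The lower member was SMARCA4, the ATPase of a chromatin remodeller (-0.28 ± 0.08), a call that ended with library totals, with totals that leave out the crystallins, and without untreated pool 3 or hypoxia pool 3. MAFA, MAF, PAX6, PITX3 and SMARCA4 were chosen after their values were seen.

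Alpha-crystallin hands unfolded proteins to the HSP70 and HSP90 chaperones, which refold them with ATP. That machine had 21 measured genes, 10 of them lower, 2 higher and 9 not passing, with a median log2 fold change of -0.32. The share lower was 47.6% and the share higher 9.52%, beside 25.7% and 29.4% of all rows, whose median was -0.01. Library totals gave 8 lower and 4 higher, and a median of -0.10. HSPA8, the constitutive HSP70, stood at 21877, 21688 and 21575 in untreated and at 9219, 8829 and 10106 in hypoxia pools 1 to 3 (-1.21 ± 0.09). Both of its groups were tight and far apart, unlike the hypoxia pools of CRYAA. HSP90AA1, the inducible HSP90, and DNAJA1, an HSP40 co-chaperone, fell by 1.42 ± 0.10 and 1.54 ± 0.13 on the log2 scale. PTGES3, the HSP90 co-chaperone p23, had -0.68 ± 0.10, and HSPA2, an HSP70, had -1.29 ± 0.17. Higher were the nucleotide exchange factor gene BAG1 (0.94 ± 0.18) and CHORDC1, an HSP90-binding protein gene (0.62 ± 0.16), and BAG3 was at -0.05 ± 0.15 and did not pass. BAG1, CHORDC1 and BAG3 were chosen after their values were seen.

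Proteins that alpha-crystallin binds or shields in lens or muscle included 5 higher and 7 lower genes of the 14 measured, with a median log2 fold change of -0.21. The share higher, 35.7%, was near the 29.4% of all rows, and the share lower was 50.0% beside 25.7%. All 7 lower genes had a mean of at least 10000, and 60.5% of such rows were lower. For the 14 genes, library totals gave 5 higher and 3 lower, and a median of 0.002. DES encodes desmin, the intermediate filament protein of muscle, which CRYAB binds. It stood at 81, 83 and 50 in untreated and 2114, 1323 and 1257 in hypoxia pools 1 to 3, far above every untreated pool (4.43 ± 0.25, adjusted p = 3.56e-06). CCND1, the cyclin D1 gene, had a log2 fold change of 1.14 ± 0.13 and the tubulin gene TUBA1A one of -0.66 ± 0.10. The beaded filament genes BFSP1 (-0.62 ± 0.12) and BFSP2 (-0.57 ± 0.12) were lower, while VIM, the vimentin gene, was at 104610, 104635 and 108210 in untreated and 112333, 97094 and 97019 in hypoxia pools (-0.05 ± 0.10, adjusted p = 0.676). BFSP2 and VIM were chosen after their values were seen.

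RNA-binding and decay factors of lens fibers, which set how long lens transcripts last and how they are translated, were 2 higher and 3 lower of 11 measured, with a median of -0.19. The share lower, 27.3%, was close to the 25.7% of all rows, and the share higher, 18.2%, was below their 29.4%, so the counts are no result about the group. Library totals gave 5 higher and 2 lower, with a median of 0.03. RBM24, an RNA-binding protein of lens development, rose by 0.67 ± 0.10 on the log2 scale. ZFP36L1, which marks AU-rich messages for decay, rose from 127 ± 78 to 1054 ± 56 (3.20 ± 0.39), with untreated pools at 216, 72 and 94. CAPRIN2, STAU2 and the poly(A)-binding protein gene PABPC1 fell by 0.71 ± 0.14, 0.54 ± 0.09 and 0.33 ± 0.10 on the log2 scale, the last not with library totals (adjusted p = 0.33) or without untreated pool 2. TDRD7, a granule protein whose loss causes cataract, did not pass (-0.24 ± 0.11, adjusted p = 0.0783).

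In the RefSeq gene table of assembly GRCg7b, which is not the submitters' build, CRYAB has HSPB2, C11orf52 and DIXDC1 as the next genes on one side. DIXDC1, which encodes a Wnt pathway protein, stood at 2551, 2222 and 1904 in untreated and at 658, 543 and 336 in hypoxia pools 1 to 3 (-2.16 ± 0.24, adjusted p = 0.000319). C11orf52 stood at 436, 282 and 262 in untreated and at 230, 252 and 165 in hypoxia pools (-0.58 ± 0.22, adjusted p = 0.0457), a call lost in 8 of 17 alternatives. All 3 of these neighbours were thus lower, each with its lowest value in hypoxia pool 3, as CRYAB was. Over all rows, 25.7% were lower and 34.0% had their lowest hypoxia value in pool 3. The call of HSPB2, a gene near the bottom of the table, was lost in 3 of 17 alternatives. FDXACB1, the measured gene on the other side, was at 0.03 ± 0.16 and did not pass. The strand setting of the counting is not given in the sources used here, so reads of overlapping or antisense genes cannot be told apart. The 6 measured genes nearest to CRYAA, 3 on each side, differed among themselves. The splicing factor gene U2AF1 rose by 0.49 ± 0.10, the kinase gene SIK1 by 1.46 ± 0.10 and RRP1B by 0.59 ± 0.13 on the log2 scale. NDUFV3, a complex I subunit, had -0.44 ± 0.13 (adjusted p = 0.011, not passing with library totals), and PKNOX1 (-0.56 ± 0.22, adjusted p = 0.0509) and HSF2BP (0.11 ± 0.28) did not pass.

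The rows whose log2 values followed each gene most closely over the 6 libraries were sought among 7691 rows with a mean of at least 100. Likeness was measured by Pearson's r, which is high here for any row whose groups lie apart in the same direction, so it is a description with no test. For CRYAB the closest were LAMTOR3 (r = 0.998), USP5 (0.997), PSMB2 (0.997), CLPTM1 (0.994) and UBL7 (0.994). For CRYAA they were DUS2 (r = 0.992), RNF123 (0.992), WDR91 (0.990), NECAP1 (0.990) and POLE2 (0.989). The 2 alpha-crystallins had r = 0.942 with each other, which placed CRYAB at position 100 in the list of CRYAA and CRYAA at position 397 in that of CRYAB.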

How the data were processed

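RNA-seq libraries of 3 untreated and 3 hypoxia pools were analysed from 1 deposited table of 9107 gene rows. Its per-library values are scores: whole numbers that the authors had scaled for library size, a unit worked out from the values. Per the file headers, the authors deposited in addition their log2 fold change (shrunken) and adjusted p-value. Per the submitters' processing notes the build was galGal6 and STAR and DESeq2 were among the tools. Counter, annotation and strand setting: not given in the sources used here. Pools of a group are biological triplicates, per the labels.

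Because the table holds no unscaled counts, limma 3.58.1 in R 4.3.3 was run on log2(value + 1). The fit had group as sole term, trend and robust moderation, and covered 9105 rows with a mean of at least 1. METTL16 was left out, having 1 value that was not whole. Adjusted p-values are Benjamini-Hochberg values over all rows, called under 0.05, and errors of fold changes are SE. Fold changes on this scale understate the change of low genes. Ratios and shares were compared by exact permutation over pools. Reads were recovered from steps in the rounded values, and their number limits counting error only. In all, 0 columns held values of unknown samples.

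The members and gene lists were chosen with earlier results of these data known. Named genes were both alpha-crystallins, all measured crystallins, small heat shock proteins and heat shock factors, the 5 members with the smallest p of each further list, the 10 highest rows, the 5 most alike rows and the 3 nearest measured genes on each side. A few genes that this rule names are not reported here.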

Additional observations from a re-analysis of the deposited data

How the results depend on the processing

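CRYAB kept its direction and its call under all 17 alternatives (log2 fold change -0.72 to -0.41), and CRYAA its direction. The call of CRYAA ended with library totals (-0.19) and with totals that leave out the crystallins (-0.32). It also ended without untreated pool 1, 2 or 3 and without hypoxia pool 3. Without 1 pool the log2 fold change of CRYAA ran from -0.54 to -0.27. Both calls were kept with pseudocounts of 0.5 and 10, with no filter and with a mean of at least 10. They also held with scaling by the trimmed mean of M-values or by recomputed median-ratio factors, and with other variance models. CRYAA passed narrowly in limma without trend and robust moderation (adjusted p = 0.0484) and in limma without hypoxia pool 2 (adjusted p = 0.0497). The difference of CRYAA relative to ASL1 ran from -0.28 without hypoxia pool 1 to 0.0595 without hypoxia pool 3, and the cause was not tested. The differences of the CRYAA to CRYAB ratio and of CRYAB relative to ASL1 kept their direction without any 1 pool, at 0.18 to 0.25 and -0.46 to -0.19, and relative to YBX1 CRYAB had -0.42 and CRYAA -0.19. Of all calls 53.4% were higher, against 78.9% with library totals and 64.1% with totals that leave out the crystallins. Same-numbered pools deviated together weakly (correlations 0.0397 to 0.146), and 5 of 6 pools were closest to their own number. These values do not settle whether the numbers pair the pools, and the labels state no pairing. With the replicate block CRYAA had adjusted p = 0.00535 and CRYAB adjusted p = 0.000283 in limma, with 5313 calls against 5017, and the ratio had an exact sign-flip p of 0.25, the smallest that 3 pairs allow. DESeq2 and edgeR tests were not run. The table holds scaled values, and the reads recovered from them were used for depth only. Of 238 list counts under the alternatives, 227 stayed within 1.5 times, but this includes counts that stayed at 0 and settings that change the fit little. Library totals moved more of the list counts than any other alternative, such as the other lens crystallins called lower, from 9 to 5. Precision is set by 3 pools a group, not by depth.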

Other observations

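The hypoxia pools differed in some chaperone genes more than the untreated pools did, as they did across the table. HSPB8, HSPB9, HSF4 and HSPH1, an HSP110 chaperone gene, were chosen after their values were seen. HSPH1 stood at 1112, 1228 and 1005 in untreated pools 1 to 3 and at 707, 1148 and 1616 in hypoxia pools 1 to 3, and it did not pass (-0.02 ± 0.29, adjusted p = 0.955, limma). HSPB8, HSF4 and HSPH1 were lowest in hypoxia pool 1 and highest in pool 3, and HSPB9 took the same places, whereas CRYAA and CRYAB were highest in pool 1 and lowest in pool 3. HSPA8, in the same libraries, stayed between 8829 and 10106 in the hypoxia pools, though it too was highest in pool 3. So were most of the 21 measured genes of the HSP70 and HSP90 machine, but the share of all rows highest in pool 3 was not worked out. Of those 21, 2 were highest in hypoxia pool 1, beside 40.8% of all rows. The part of these differences between pools in the results for CRYAA and CRYAB was not tested.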
